A study of Homo sapiens with 18 samples.

Results

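The ISG15 conjugation pathway was examined through 6 genes, *ISG15*, *UBA7*, *UBE2L6*, *HERC5*, *HERC6* and *USP18*, out of 58302 genes in the RNA-seq table. The 6 genes were selected on the lower RNA values they had shown in shNAT10 cells in an earlier look at these data, together with their known roles, so their RNA differences between the groups are a description, and the intervals and calls given for them from the fit across all genes are no evidence of a change. Each gene was found by its Ensembl identifier, and the acRIP-seq peaks assigned to the same identifiers were taken from the peak lists of both groups. All libraries came from PANC-1, a cell line from a human pancreatic ductal carcinoma. Control cells (shCtrl) carried a stable lentiviral vector that the labels call empty, and NAT10-KD cells (shNAT10) carried a stable lentiviral shRNA against NAT10, the enzyme that writes N4-acetylcytidine (ac4C) on RNA. The paper lists a non-targeting shRNA beside those against NAT10. Whether the sequenced control cells carried it is not settled in the sources used here. RNA-seq held 3 libraries per group, and acRIP-seq, an immunoprecipitation of RNA fragments with an antibody against ac4C, held 3 IP and 3 input libraries per group. The labels name no interferon treatment, and nothing states that libraries of a group came from separate cultures, so errors and p-values measure the spread between these libraries, which may be technical. A single cell line was used, and the sources used here do not say which NAT10 shRNA the cells carried.

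ISG15 is a small ubiquitin-like protein that cells attach to other proteins after interferon exposure, in a chain of enzymes like that of ubiquitin. UBA7 is the E1 that activates ISG15, UBE2L6 is the E2 that carries it, and HERC5 is the main human E3 ligase that places it on newly made proteins. HERC6 is the closest relative of HERC5 and the main ISG15 ligase of mice, and USP18 removes ISG15 from its targets and, apart from that activity, dampens type I interferon signalling at the receptor subunit IFNAR2. Genes of this system are themselves induced by interferon, through a promoter element called the interferon-stimulated response element (ISRE).

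The promoters of the members show where this element sits in the system, and the letters GAAANNGAAA, the core of the ISRE, were searched on both strands. Promoters in RefSeq (GRCh38.p14), from 250 bases before to 50 bases after a gene's start, were found for 4 of the 6 genes, namely *ISG15*, *HERC5*, *HERC6* and *UBE2L6*, the last with a pair of starts. The letters occurred in the promoters of *ISG15* and *HERC5*, and not in these windows of *HERC6* and *UBE2L6*. Among all 35116 promoters the share with these letters was 3.57%, and among the 13791 promoters of genes tested in the RNA-seq it was 2.64%, beside 3.1% of the 2996 promoters of genes called lower in shNAT10 cells and 58.1% of the 62 promoters of other interferon-stimulated genes. The 250 bases before the start are printed for both, with the matches in capitals, *ISG15* at chr1:1013247-1013496 and *HERC5* at chr4:88456869-88457118, both on the plus strand.

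ISG15: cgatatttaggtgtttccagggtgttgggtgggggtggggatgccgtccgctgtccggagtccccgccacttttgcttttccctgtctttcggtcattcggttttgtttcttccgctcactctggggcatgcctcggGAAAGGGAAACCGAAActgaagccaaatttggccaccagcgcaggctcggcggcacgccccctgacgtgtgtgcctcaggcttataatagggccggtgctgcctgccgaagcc

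HERC5: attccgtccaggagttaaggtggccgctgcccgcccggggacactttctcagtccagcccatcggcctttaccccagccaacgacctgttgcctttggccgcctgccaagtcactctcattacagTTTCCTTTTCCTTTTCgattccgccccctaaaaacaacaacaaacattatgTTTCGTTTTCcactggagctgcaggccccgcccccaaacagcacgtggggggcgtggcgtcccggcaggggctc

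In *ISG15* 2 matches overlap each other, one from base -113 to -104 and the other from -107 to -98, counted from -1 at the base before the start. In *HERC5* the match lies on the opposite strand 3 times, from -125 to -116, from -119 to -110 and from -74 to -65, the first 2 overlapping. A match of letters is a description of the sequence and not evidence of binding.

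The knockdown was present in every library. *NAT10* had FPKM values (reads scaled by transcript length and by the depth of the library) of 31.6, 27.7 and 28.6 in the shCtrl libraries and of 7.92, 8.43 and 7.9 in the shNAT10 libraries, a log2 fold change of -1.84 ± 0.08 (SE, n = 3 per group), with an adjusted p of 3.85e-05 by limma over all tested genes. Libraries held between 15831720 and 23521762 reads. The library shCtrl replicate 2 stood apart by transcript length, with genes whose transcripts are under 1500 bases at a median of 0.27 above their mean over the libraries on the log2 scale and genes of 6000 bases or more at -0.32, while the other 5 libraries lay between -0.08 and 0.12 in both classes. All 6 epithelial and ductal markers examined averaged an FPKM of 1 or more, with summed FPKM values of 2790 to 3750 in shCtrl and 1500 to 1680 in shNAT10 libraries, most of it from keratins, while *EPCAM* rose by 2.2 on the log2 scale (adjusted p = 6.88e-05, limma) and *CDH1* had a log2 fold change of 0.33 that was not called (adjusted p = 0.111, limma). Of 10 leukocyte markers, 4 were listed at 0 in every library and the sum lay between 2.57 and 3.22 in shCtrl and between 1.53 and 1.69 in shNAT10 libraries, mostly from CD14. Of 6 fibroblast markers 2 passed the filter on FPKM. *COL1A1* fell by 0.69 from a shCtrl mean of 31.1 FPKM, and *COL3A1* rose by 1.24 to a shNAT10 mean of 1.96 FPKM (adjusted p = 0.00182 each, limma). Of 5 endothelial markers 0 passed the filter. The part of these markers in the results was not tested.

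All 6 members had lower values in shNAT10 cells, the modifier, its E1 and E2, the ligase genes and the protease *USP18*. For all 6 members each of the 3 shNAT10 libraries lay below each of the 3 shCtrl libraries. A pattern of this kind was seen in 28.6% of the 12982 tested genes, those reaching an FPKM of 1 in 3 or more libraries. Of the 6 members 4 passed this filter, *UBA7* only through the shCtrl libraries, in which it is high, while *HERC5* and *HERC6* were below 1 in every library. All 4 were called lower (adjusted p-value under 0.05 by limma) and 0 higher, the same numbers as at an unadjusted p under 0.05 and with voom on the recovered reads, beside 21.2% of tested genes called lower and 20.8% called higher. Under TPM scaling the share of lower calls among all calls went from 50.5% to 38.2%, and all 4 were still called lower. A fall past 1 on the log2 scale was found for 3 of the 4 and for 3.57% of tested genes. In the fit without the filter, which held 29695 genes with 7.85% called lower, all 6 members were called lower. Since the members were selected on this contrast, these counts support nothing beyond their description. In bulk RNA, fewer cells that express a gene and less RNA per cell cannot be told apart.

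**Figure D1:**
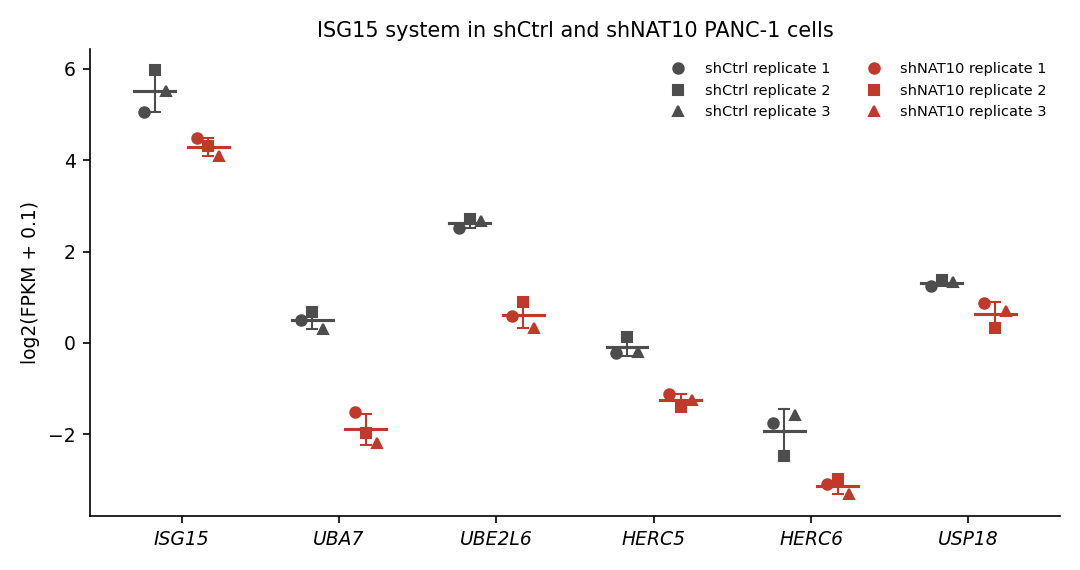
Level of each member as log2(FPKM + 0.1) in the 6 RNA-seq libraries, with shCtrl in grey and shNAT10 in red, the symbol giving the replicate number, the horizontal bar the mean and the error bar the SD (n = 3). For all 6 genes the shNAT10 points lie below the shCtrl points, with the widest gap on this scale in *UBA7*.

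*ISG15* (ENSG00000187608, chr1:1001138-1014540, plus strand, GRCh38), the modifier itself, was the most abundant member. Its FPKM was 33.0, 62.5 and 45.4 in shCtrl libraries 1 to 3 and 22.2, 19.8 and 16.9 in shNAT10 libraries 1 to 3. The shCtrl values spread over a wide range, with replicate 2 highest, and the shNAT10 values stayed close together and below all of them. The mean was 47.0 ± 14.8 (SD, n = 3) in shCtrl and 19.6 ± 2.67 (SD, n = 3) in shNAT10 cells, or 41.8% of the control mean, and the log2 fold change was -1.21 ± 0.22 (SE; 95% interval -1.74 to -0.69). *ISG15* is short, with a transcript of 788 bases used for its FPKM, and shCtrl replicate 2 was the library rich in short transcripts. Without that library the log2 fold change was -0.98 and the shNAT10 mean was 50.1% of the control mean, and a correction of every library for transcript length, chosen after seeing the data, gave -1.07. The 451, 996 and 842 reads recovered for the gene in shCtrl libraries and the 277, 304 and 235 in shNAT10 libraries make counting error small beside the spread between libraries. On the opposite strand AL645608.3 overlaps 3.83% of the exon bases of *ISG15*, and the strand setting of the counting is not given in the sources used here.

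*UBA7* (ENSG00000182179, chr3:49805207-49813946, minus strand), the E1 at the head of the chain, had the largest log2 fold change of the 4 members that passed the filter, at the pseudocount of 0.1. Its FPKM was 1.31, 1.5 and 1.13 in shCtrl libraries and 0.249, 0.156 and 0.12 in shNAT10 libraries. The lowest control library was far above the highest knockdown library. The means were 1.31 ± 0.182 and 0.175 ± 0.0665 (SD, n = 3 each), 13.3% of control, with a log2 fold change of -2.38 ± 0.34 (SE; 95% interval -3.19 to -1.57). In reads these levels came to 75, 100 and 88 in shCtrl libraries and to 13, 10 and 7 in shNAT10 libraries, so the low group rests on few reads. The value depends on the pseudocount, and at a pseudocount of 1 it was -0.98, behind *UBE2L6* at -1.54 and *ISG15* at -1.18. The microRNA gene MIR5193 lies within 2.4% of its exon bases.

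*UBE2L6* (ENSG00000156587, chr11:57551656-57568284, minus strand), the E2, was next to *ISG15* in level in shCtrl cells. Its FPKM was 5.61, 6.41 and 6.24 in shCtrl libraries and 1.41, 1.77 and 1.15 in shNAT10 libraries. Neither group had a library far from its fellows. From 6.09 ± 0.423 the mean went to 1.44 ± 0.309 (SD, n = 3 each), 23.7% of control, and the log2 fold change was -2.02 ± 0.16 (SE; 95% interval -2.4 to -1.65). Without shCtrl replicate 2 it was -1.98.

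The ligase genes *HERC6* (ENSG00000138642, chr4:88378739-88443111) and *HERC5* (ENSG00000138646, chr4:88457117-88506163) are neighbours on the plus strand of chromosome 4, with 14005 bases between them. *HERC5* had FPKM values of 0.755, 0.999 and 0.775 in shCtrl libraries and of 0.36, 0.278 and 0.322 in shNAT10 libraries. The shNAT10 mean of 0.32 ± 0.0407 was 38.0% of the shCtrl mean of 0.843 ± 0.135 (SD, n = 3 each). In the unfiltered fit its log2 fold change was -1.16 ± 0.26 (SE; 95% interval -1.78 to -0.55), but leaving out any 1 of 5 of the 6 libraries, all but shCtrl replicate 1, ended the call, with values of -1.23 to -1.05 over the 6 libraries. It was read 46, 71 and 64 times in shCtrl and 20, 19 and 20 times in shNAT10 libraries.

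*HERC6* was near the limit of detection in both groups. Its FPKM was 0.198, 0.0784 and 0.236 in shCtrl libraries and 0.0167, 0.0272 and 0 in shNAT10 libraries. These are 40 reads over the shCtrl libraries against 3 reads over the shNAT10 libraries, a ratio per depth of 11.6 with a 95% exact interval of 3.68 to 58.4 that covers counting error only. The fitted log2 fold change of -1.2 ± 0.31 (SE; 95% interval -1.93 to -0.46) depends on the pseudocount and was -0.2 with a pseudocount of 1. Leaving out any 1 of 5 of the 6 libraries, all but shCtrl replicate 2, ended its call, with values of -1.47 to -1.02 over the 6 libraries. *HERC6* is therefore the least certain of the 6.

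*USP18* (ENSG00000184979, chr22:18149899-18177397, plus strand), the protease and brake on receptor signalling, differed least. Its FPKM was 2.27, 2.51 and 2.42 in shCtrl libraries and 1.72, 1.16 and 1.51 in shNAT10 libraries. The groups stayed apart, with the nearest libraries at 1.72 and 2.27. The mean went from 2.4 ± 0.117 to 1.46 ± 0.284 (SD, n = 3 each), 61.1% of control, and the log2 fold change was -0.69 ± 0.17 (SE; 95% interval -1.09 to -0.29). Without shCtrl replicate 3 the value was -0.69 as well and the call was lost, which, with *UBA7* then under the filter, left 2 members called. *USP18* has a near-identical copy, *USP41*, which was listed at 0 in all 6 libraries, and how reads shared by the copies were counted is not given in the sources used here.

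**Figure D2:**
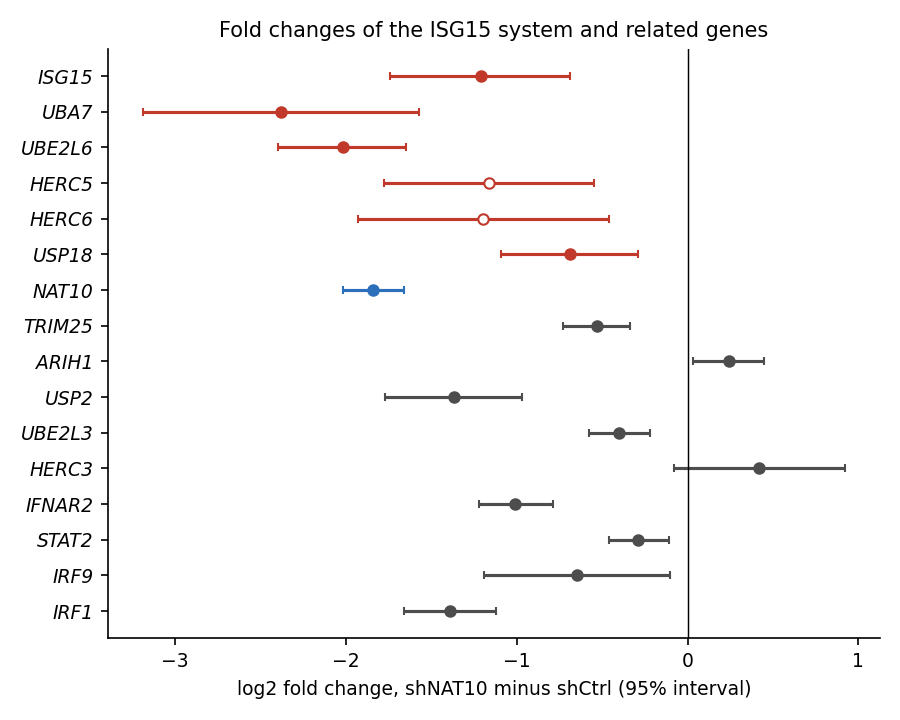
Log2 fold change (shNAT10 minus shCtrl, x axis) with its 95% interval from limma on 3 libraries per group, for the members in red, *NAT10* in blue and related genes in grey, with open circles for the 2 members from the fit without the filter. The intervals of all 6 members lie below 0, from -0.69 for *USP18* to -2.38 for *UBA7*, while *HERC3* lies at 0.42.

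Because FPKM is scaled by length, levels can be set against each other. In shCtrl cells the order from high to low was *ISG15*, *UBE2L6*, *USP18*, *UBA7*, *HERC5* and *HERC6*, and no neighbours in it overlapped between libraries. In shNAT10 cells *UBE2L6* at 1.15 to 1.77 and *USP18* at 1.16 to 1.72 overlapped, and *HERC5* at 0.278 to 0.36 lay above *UBA7* at 0.12 to 0.249. Thus the E1 was above the ligase *HERC5* in control cells and below it in NAT10-KD cells.

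Ratios between members were compared within each library, without a test of whether the members differed in their change. Within a library the FPKM of *ISG15* was 5.88, 9.75 and 7.28 times that of *UBE2L6* in shCtrl and 15.8, 11.2 and 14.7 times in shNAT10 cells. Against *UBA7* the ratio was 25.2, 41.7 and 40.1 in shCtrl and 89.2, 127 and 141 in shNAT10 cells. Both ratios were higher in every shNAT10 library than in any shCtrl library, including shCtrl replicate 2, in which *ISG15* was highest. The ratio of *ISG15* to *USP18* was 19.4 ± 5.23 in shCtrl and 13.7 ± 3.07 in shNAT10 cells and its libraries overlapped, as did those of *ISG15* to *HERC5* at 55.0 ± 9.94 and 61.8 ± 9.47 (SD, n = 3 each). Between the enzymes, *UBE2L6* was 4.28, 4.28 and 5.51 times *UBA7* in shCtrl and 5.65, 11.3 and 9.59 times in shNAT10 libraries, a pair of groups that nearly met. These ratios derive from the values that chose the members.

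Genes with a similar pattern over the 6 libraries were sought by the root-mean-square difference of library-centred log2(FPKM + 0.1) values. Nearest to *ISG15* were *PPP1R14A*, *TM7SF2* and *TIMP1*, at differences of 0.11, 0.11 and 0.12. For *UBA7* they were *CEBPA*, *CLIC3* and *ARMCX1* at 0.11, 0.17 and 0.19, and for *UBE2L6* they were *CD82*, *HLA-F* and *SPCS3* at 0.09, 0.11 and 0.13. Among the 3 nearest to *USP18* were *C3orf33* and *CDK5R1*, both at 0.07. For these 4 members, the search of which covered tested genes only, no member was among the 3 nearest; *HERC5* and *HERC6* were not searched. With 6 libraries in 2 groups, the size of the group difference is a part of this likeness.

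The gene lists from here on were chosen with earlier results of these data known, so their counts and p-values are a description. Of 9 other ligases and proteases reported to act on ISG15, all tested, 2 were called lower and 2 higher, beside 21.2% and 20.8% of all tested genes. These counts are close to the shares over all tested genes. The median log2 fold change was 0.21 beside -0.01 over all tested genes. TRIM25, an estrogen-induced E3 also described as an ISG15 ligase, fell from 18.2, 15.3 and 17.2 to 11.2, 11.8 and 11.9 FPKM, by 0.53 ± 0.08 (SE) on the log2 scale with an adjusted p of 0.00272 by limma. *ARIH1*, a further reported ISG15 ligase, had a log2 fold change of 0.24 ± 0.09 (SE) that was not called (adjusted p = 0.0633, limma) and that was -0.07 with the correction for transcript length. *USP2*, a protease that also acts on ubiquitin, was the only gene of the list called past 1 and fell from 2.13, 2.2 and 2.02 to 0.728, 0.675 and 0.879 FPKM, with a log2 fold change of -1.37 (adjusted p = 0.0011, limma). Like *UBA7* it passed the filter only through the shCtrl libraries. Without shCtrl replicate 1 or 3 the lower calls of the list were 1, and without shCtrl replicate 3 or shNAT10 replicate 3 the higher calls were 1.

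The relatives of HERC5 and HERC6 outside the ISG15 system, *HERC1* to *HERC4*, included 0 genes called by limma in either direction, 0 at an unadjusted p under 0.05 and 0 with voom on the recovered reads, and all 4 had log2 fold changes above 0. Without shCtrl replicate 1, 1 of them was called higher. All 4 were lowest in shCtrl replicate 2, the library low in long transcripts, and without it *HERC3* was at 0.21. In the remaining shCtrl libraries *HERC2* was at 16.4 and 13.3 FPKM, against 13.5 to 14.5 in shNAT10 libraries. *HERC4* was at 34.6 and 35.8 there, against 33.2 to 34.7. The shared direction of the 4 genes thus rests on shCtrl replicate 2. *HERC3*, a small HERC protein like the pair, had FPKM values of 1.6, 0.964 and 1.47 in shCtrl and 1.61, 1.87 and 1.9 in shNAT10 libraries, a log2 fold change of 0.42 ± 0.21 (SE) that was not called (adjusted p = 0.156, limma). Among 9 E1 enzymes of ubiquitin and of other ubiquitin-like proteins, 3 were called lower and 1 higher (2 without shCtrl replicate 2), none past 1, against the -2.38 of *UBA7*. Among 12 other E2 enzymes 5 were called lower and 0 higher by limma (6 and 0 at an unadjusted p under 0.05, 5 and 0 with voom), with a median of -0.2. *UBE2L3*, the E2 nearest in kind to UBE2L6, fell by 0.4 ± 0.07 (SE; adjusted p = 0.00557, limma), from 36.2, 42.3 and 38.4 to 29.8, 29.2 and 29.3 FPKM. Of 14 tested genes for ubiquitin and other ubiquitin-like proteins, 4 were called lower and 3 higher, and none past 1. These lower calls were 2 without shNAT10 replicate 1 or 3, and the higher calls were 1 without shCtrl replicate 3, shNAT10 replicate 2 or shNAT10 replicate 3.

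Of 10 genes for the receptor, kinases and transcription factors of type I interferon signalling, 5 were called lower and 0 higher by limma (6 and 0 both at an unadjusted p under 0.05 and with voom), with a median of -0.36. *IFNAR2*, the receptor subunit that USP18 binds, fell from 5.92, 6.44 and 5.88 to 3.14, 2.75 and 3.04 FPKM, a log2 fold change of -1.01 ± 0.09 (SE; adjusted p = 0.000333, limma). *IRF1*, a transcription factor of the interferon response, fell from 5.37, 6.32 and 5.13 to 2.12, 1.93 and 2.16 FPKM, a log2 fold change of -1.39 ± 0.11 (SE; adjusted p = 0.00023, limma). STAT2 and IRF9 are subunits of the complex that binds the ISRE. *STAT2* fell by 0.29 ± 0.07 (SE; adjusted p = 0.0196, limma), a call lost under TPM and without shCtrl replicate 3, shNAT10 replicate 1 or shNAT10 replicate 2, with values of -0.31 to -0.18. *IRF9*, at 1.0, 1.1 and 1.25 against 0.55, 0.756 and 0.739 FPKM, had a value of -0.65 ± 0.23 (SE) that was not called (adjusted p = 0.06, limma). It passed the filter only through the shCtrl libraries. None of the 9 interferon genes examined passed the filter, and 5 of them, among them *IFNB1*, were listed at 0 in every library. Their summed FPKM was 0.885 to 1.36 in shCtrl and 0.837 to 0.997 in shNAT10 libraries. Most of it came from *IFNE*, named here after its values were seen, at 0.836 to 1.13 and 0.642 to 0.92.

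Other interferon-stimulated genes were mostly lower in shNAT10 cells as well. Of 55 listed, 37 were tested, and 32 of these were called lower and 3 higher, beside 21.2% and 20.8% of all tested genes, with a median log2 fold change of -0.87. As the list was chosen with earlier results of these data known, these counts and the p-values below support nothing beyond their description. Of the 32, 2 were under an FPKM of 1 in every shNAT10 library and had passed the filter through the shCtrl libraries, *OAS1* and *SAMD9*, named here after their values were seen. The largest falls were in *IFIT2* at -2.58, *IFITM3* at -2.35 and *IFIT3* at -2.26, antiviral effectors, with adjusted p-values of 5.03e-05, 7.89e-05 and 0.000309 by limma. The 3 called higher were *ZNFX1* at 0.42, *MX2* at 0.33 and *RIGI* at 0.27, with adjusted p-values of 0.0126, 0.0246 and 0.0491 by limma. Without shCtrl replicate 3 or without any 1 of the shNAT10 libraries the count of 3 was 1, and in each of these fits *MX2* and *RIGI* were no longer called.

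Transcripts for proteins reported to carry ISG15 went both ways. Of 19 tested, 6 were called lower and 7 higher, beside 21.2% and 20.8% of all tested genes, with a median of -0.08. Calls in both directions are thus common among tested genes at large. The lists share genes. *IFIT1*, *IFIT3*, *EIF2AK2* and *RIGI* are also counted among the other interferon-stimulated genes, and *TRIM25* among the other ISG15 enzymes. After *IFIT3*, the largest falls were in *IFIT1* at -0.85 and *EIF2AK2*, the double-stranded RNA-activated kinase, at -0.84 (adjusted p = 0.000713 and 0.00402, limma). The largest rises were in *BECN1*, an autophagy factor, at 0.65, *PCNA*, the sliding clamp of replication, at 0.52, and *EIF4E2*, a cap-binding protein, at 0.34 (adjusted p = 0.000795, 0.00227 and 0.0117, limma). The 7 higher calls became 2 or 3 when shCtrl replicate 3 or any 1 of the shNAT10 libraries was left out, and *EIF4E2* lost its call without shCtrl replicate 3 or shNAT10 replicate 2. Of 5 tested partners of USP18 or free ISG15, among them *IFNAR2* and *STAT2* of the signalling list, 3 were called lower, *IFNAR2* by the most, and 2 higher. Each count was 1 without shCtrl replicate 3, shNAT10 replicate 1 or shNAT10 replicate 2, as were the higher calls without shNAT10 replicate 3.

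The acRIP-seq peaks, 16892 in shCtrl and 15813 in shNAT10 cells, were examined on the same 6 genes. The authors deposited 1 list per group, so the peaks have no replicate check and differences between the lists were not tested. A peak was listed for 4 of 6 members in shCtrl cells, beside 49.8% of the 12876 genes that averaged an FPKM of 1 or more there, and for 4 of 6 in shNAT10 cells, beside 48.1% of 12725. On the same base of expression the members with a peak were 4 of 4 in shCtrl and 2 of 3 in shNAT10 cells, where *UBA7* averaged under 1 as well as *HERC5* and *HERC6*. *UBA7*, *UBE2L6* and *USP18* had peaks in both lists, *ISG15* only in the shCtrl list, *HERC6* only in the shNAT10 list and *HERC5* in neither.

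*ISG15* had 1 peak, at chr1:1013516-1014100, of 178 bases in 2 exons, which took in 58 bases of the 5' UTR and the first 120 coding bases. Its fold enrichment of IP over input was 6, at percentile 12.8 of the shCtrl list, where peaks on genes averaging 20 FPKM or more had a median of 12.4. By the p-value in the authors' list it was the weakest shCtrl peak on a member. Its 120 coding bases are printed since they are the part of *ISG15* listed in control cells alone, with the start codon in capitals (coding bases 1 to 120, chr1:1013574-1014100, GRCh38, plus strand, spliced).

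ISG15: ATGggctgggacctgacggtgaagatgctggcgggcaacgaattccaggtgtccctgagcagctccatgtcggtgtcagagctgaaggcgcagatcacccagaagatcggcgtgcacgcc

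*UBA7* had 3 peaks in each list. The shCtrl peaks, with fold enrichments of 140, 382 and 1760, lay side by side along the coding region, and those of shNAT10 cells, with 188, 1960 and 17.4, lay farther apart. The peaks at 382 and 1760 had 311 of 420 and 162 of 241 bases on the coding transcript used here. The shNAT10 peak at 1960 had 140 of 240. A single pair overlapped, by 180 bases. The whole of the shorter peak, chr3:49808433-49809119, lay inside the longer one of shNAT10 cells, chr3:49808070-49809149, with 300 coding bases. The enrichment of this pair was 140 in shCtrl and 188 in shNAT10 cells, with no error to set them against. On *UBE2L6* the shCtrl list gave 1 peak of 832 bases with an enrichment of 605, and the shNAT10 list gave 2 with 2070 and 512, both overlapping it, by 298 bases in the 3' UTR and by 119 coding bases. The peak at 512 had 187 of its 238 bases on the coding transcript.

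The coding bases of the shared peaks are printed from the shNAT10 list with the bases also in a shCtrl peak in capitals, *UBA7* as coding bases 2174 to 2473 (chr3:49808070-49809149, minus strand) and *UBE2L6* as coding bases 28 to 214 (chr11:57554533-57560432, minus strand), both spliced and on GRCh38.

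UBA7: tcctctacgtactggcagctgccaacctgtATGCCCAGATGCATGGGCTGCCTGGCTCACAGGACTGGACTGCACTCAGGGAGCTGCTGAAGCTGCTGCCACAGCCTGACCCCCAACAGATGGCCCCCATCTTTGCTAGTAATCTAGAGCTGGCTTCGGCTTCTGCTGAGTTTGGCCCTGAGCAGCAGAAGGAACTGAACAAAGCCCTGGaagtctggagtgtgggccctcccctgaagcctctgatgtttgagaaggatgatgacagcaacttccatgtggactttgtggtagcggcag

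UBE2L6: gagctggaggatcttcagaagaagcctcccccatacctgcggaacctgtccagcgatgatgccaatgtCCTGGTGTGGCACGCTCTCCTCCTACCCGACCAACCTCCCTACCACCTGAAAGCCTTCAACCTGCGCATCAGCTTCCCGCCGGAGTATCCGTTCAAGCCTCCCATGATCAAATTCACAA

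The letters CNNCNNCNNCNN, a C followed by any pair of bases in 4 repeats, which has been described at ac4C sites, were searched on the transcribed strand with overlaps allowed. They were found 5 times in the run of *UBA7*, 2 times in that of *UBE2L6* and 0 times in the 120 coding bases of *ISG15*. Windows of the same lengths in the coding sequences of 11013 expressed genes held them in 68.2%, 55.1% and 42.7% of cases, so a match in such a window is common.

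*USP18* had 3 shCtrl peaks with enrichments of 634, 501 and 166, in the middle and at the end of the coding region, and 1 shNAT10 peak of 450 bases with 4320, over 130 bases of the 5' UTR and the first 320 coding bases. None of them overlapped. The shNAT10 peak stood at percentile 99.6 of its list. *HERC6*, with 3 reads in the shNAT10 RNA-seq libraries, had 2 shNAT10 peaks with enrichments of 45.2 and 1800. The peak at 1800 had 106 of its 180 bases on the coding transcript. High enrichment went with low expression in these lists. Peaks on genes averaging 0.5 to 5 FPKM had a median of 211 in shCtrl and 219 in shNAT10 cells, those on genes under 0.5 a median of 272 and 248, and those on genes of 20 or more a median of 12.4 and 11.6. Peaks of the members lay on both sides of such medians. *UBE2L6* averaged 6.09 FPKM in shCtrl cells, where peaks on genes of 5 to 20 FPKM had a median of 57.3 and an upper quartile of 187, and its shCtrl peak stood above both at 605. The *USP18* peak at 4320 stood above the upper quartile of 731 for genes of 0.5 to 5 FPKM in shNAT10 cells. The *UBA7* peak at 140 lay below the median of 211 for such genes in shCtrl cells, and the *ISG15* peak at 6 below 12.4. The part of expression in the members' enrichments was not tested.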

How the data were processed

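RNA-seq (3 shCtrl and 3 shNAT10 PANC-1 libraries, stranded mRNA kit) and acRIP-seq peaks were used. The authors deposited FPKM values, 1 column per library, and 1 peak list per group, pooled over 3 IP and 3 input libraries, with the fold enrichment as a ratio, a p-value, in a column the authors named score, and its log10 per peak. Per the labels, the submitters' processing notes name HISAT2, HTSeq 0.11.0 and DESeq2 1.22.2 on hg38 (GRCh38); the peak caller is not given in the sources used here. Whole reads were recovered from FPKM steps (98.4% to 98.5% of values within 0.02 of a whole number) and entered 1 alternative (voom) and the read numbers given. Where the longest transcript gave no whole numbers, a nearby length that did was used if found, so this share is partly built in.

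Expression was tested with limma 3.58.1 (R 4.3.3) with a mean-variance trend on log2(FPKM + 0.1), for the 12982 genes that reached an FPKM of 1 in 3 or more libraries, adjusted over all of them by Benjamini-Hochberg. Members under the filter came from the fit without it. Genes were called at an adjusted p-value under 0.05. On simulated data 200 genes were changed by 2 on the log2 scale, and 190 of them were among the 12716 genes that passed the filter. All 190 were called, with 12 other calls. With no gene changed, 1 of 12737 genes was called. The simulation gave every gene the same extra spread and no library a shift by transcript length. How often smaller changes in the real libraries are called was therefore not measured. Positions and transcripts came from GENCODE 29, and figures were drawn with matplotlib 3.10.9. Peaks sharing at least 1 base were counted as overlapping. The members and gene lists were chosen with earlier results of these data known. Named were the members, *NAT10*, *TRIM25*, *ARIH1*, *UBE2L3*, *HERC3*, *IFNAR2*, *STAT2*, *IRF9*, *IRF1*, other listed genes called past 1, up to 3 falls and 3 rises of the long lists, the 3 nearest patterns, and genes that overlap or copy a member; some single genes are not reported here. Alternatives were a pseudocount of 1, no filter, a minimum FPKM of 5, quantile and median scaling, TPM, no trend, voom, the replicate number as a block and each library left out, and, chosen after seeing the data, a correction for transcript length.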

Additional observations from a re-analysis of the deposited data

How the results depend on the processing

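The log2 fold changes of *ISG15* (-1.44 to -0.98), *UBA7* (-2.91 to -0.98), *UBE2L6* (-2.17 to -1.54) and *NAT10* (-1.88 to -1.74) kept their direction and their call under every alternative that gave a value, and no member or *NAT10* changed direction. Of 311 values for 20 other genes named, 287 kept direction and call, 17 lost and 6 gained a call, and 1 turned direction, *ARIH1* with the length correction (-0.07), which was not called. *UBA7* passed the filter in none of the fits without a shCtrl library. *USP18* lost its call without shCtrl replicate 3 (-0.69), with -0.81 to -0.54 over the libraries left out. *HERC5* was -1.23 to -1.05 and *HERC6* -1.47 to -1.02 in these fits, and *HERC6* also lost its call at a pseudocount of 1 (-0.2), under quantile scaling (-1.13) and under TPM (-1.94). The members called lower, 4, became 2 at a minimum FPKM of 5, which removes *UBA7* and *USP18*, and 2 to 4 with a library left out, the 2 being without shCtrl replicate 3. The cause of the other changes was not tested.

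The replicate numbers were not taken as pairs in the main fit. Same-numbered deviations had correlations of -0.04, 0.06 and 0.11, and 4 of 6 libraries matched best with their own number. With 3 libraries per group these values cannot settle whether the samples were paired. With the replicate block *HERC5* (-1.16) and *HERC6* (-1.2) lost their calls, and higher calls among partners went from 2 to 1.

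With a library left out, calls over all genes ranged from 1766 to 3182 lower (main 2751) and from 1717 to 3311 higher (main 2699). In the same fits other ISG15 enzymes ranged from 1 to 2 lower and 1 to 3 higher, HERC genes from 0 to 1 higher, E1 enzymes from 1 to 2 higher, ubiquitin-like proteins from 2 to 6 lower and 1 to 3 higher, partners from 1 to 3 lower and 1 to 2 higher, substrates from 2 to 7 higher, and other interferon-stimulated genes from 1 to 3 higher. Under TPM higher calls were 4 among other ISG15 enzymes and 3 among E1 enzymes, the latter also 3 with the correction for transcript length. Lower calls among other ISG15 enzymes were 1 at a minimum FPKM of 5, which removes *USP2*. Without the trend, higher calls were 1 among partners and 4 among substrates. Without the filter they were 1, 3 and 1 among partners, substrates and other interferon-stimulated genes. Members with a shCtrl peak, 4, became 3 in both alternatives run on this count, and those with a shNAT10 peak stayed at 4. Among the 4 with a shCtrl peak *ISG15* had the weakest by p-value. Members with overlapping peaks in both lists, 2, became 1 with the 50% of peaks of lowest p-value and 1 at a reciprocal overlap of 50%. Depth limits *HERC6*, and enrichments have no replicate error.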
